A study of Mus musculus with 282 samples.

Results

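The genes described here are the nuclear genes for the subunits of oxidative phosphorylation, with a few close relatives. They were taken by name: every gene of the expression table whose name in the merged assembly begins with Ndufa, Ndufb, Ndufc, Ndufs or Ndufv and a number, with Uqcr, Cox4 to Cox8 or Atp5, or is Sdha, Sdhb, Sdhc or Sdhd. This gave 82 genes of 14079, and no measured value entered the choice. All 82 have a row in the table, and 7 of them share their assembled locus with another gene name (Ndufa12 with Nr2c1, Atp5o with Donson, Ndufs8 with Aldh3b1, Cox8a with Naa40, Ndufb2 with Adck2, Cox7a1 with Gm5113, Ndufa13 with Yjefn3), so their values can include that gene. RNA of the whole hypothalamus was sequenced from 282 male mice of 99 strains of the Hybrid Mouse Diversity Panel, with 1 library per mouse. All mice were given a high fat, high sugar diet, and there was no group on another diet. Of the strains, 25 are inbred and the rest are recombinant inbred, in 4 sets that each descend from C57BL/6J and another parent: 43 BXD strains (DBA/2J), 18 AXB/BXA strains (A/J), 7 CXB strains (BALB/cJ) and 6 BXH strains (C3H/HeJ).

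Oxidative phosphorylation is carried out by 5 protein complexes in the inner mitochondrial membrane. Complex I (NADH dehydrogenase) and complex II (succinate dehydrogenase) pass electrons to ubiquinone, complex III (cytochrome bc1) passes them to cytochrome c, complex IV (cytochrome c oxidase) passes them to oxygen, and complex V (ATP synthase) makes ATP from the proton gradient that complexes I, III and IV build. Most subunits are encoded in the nucleus and a small set in mitochondrial DNA, so the complexes are assembled from both genomes, and neurons depend on them for most of their ATP. Of the 82 genes, 35 belong to complex I, 4 to complex II, 8 to complex III, 16 to complex IV (Ndufa4, now known as a complex IV subunit, included) and 15 to complex V. The other 4, Atp5s, Atp5sl, Ndufa4l2 and Cox7a2l, carry such names but are no core subunits.

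Promoters of nuclear respiratory genes are textbook targets of the factors NRF1, GABPA and YY1. RefSeq promoters (GRCm38.p6, 250 bases before to 50 after a start, 1 per gene) were matched to 69 of the 82 genes, 3 of them by an older name, and searched on both strands. The NRF1 motif (GCGCA, any base, GCGC) stood in 16 of the 69 (23.2%) and in 4.78% of all 27025 promoters of the table, the GABPA/ETS motif CCGGAAG in 15 (21.7%, against 9.12%) and the YY1 motif AAGATGGC in 10 (14.5%, against 2.88%). At least 1 of the 3 motifs stood in 36 of the 69 (52.2%, against 15.2%), and none of the 69 held all 3 (0.0518% of all promoters did). These are matches of letters, not tests of binding. The 250 bases before the start are shown for Ndufs5 and Cox7a2l, which had the largest strain shares of variance described below, and for Cox6a1, which has 3 matches. All 3 genes lie on the minus strand, at chr4:123718187-123718436 for Ndufs5, chr5:115348959-115349208 for Cox6a1 and chr17:83514334-83514583 for Cox7a2l. The last bases of the Ndufs5 and Cox6a1 windows lie inside the gene as assembled by the authors. Capitals mark the motifs. The NRF1 motif stands once in Ndufs5 and in 2 places in Cox6a1. Cox6a1 also holds the reverse complement of the GABPA/ETS motif, while the Cox7a2l window holds no match.
Ndufs5: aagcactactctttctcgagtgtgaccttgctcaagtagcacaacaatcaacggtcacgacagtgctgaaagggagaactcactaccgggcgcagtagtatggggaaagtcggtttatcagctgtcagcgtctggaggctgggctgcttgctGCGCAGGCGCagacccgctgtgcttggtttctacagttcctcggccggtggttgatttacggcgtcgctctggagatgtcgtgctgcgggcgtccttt
Cox6a1: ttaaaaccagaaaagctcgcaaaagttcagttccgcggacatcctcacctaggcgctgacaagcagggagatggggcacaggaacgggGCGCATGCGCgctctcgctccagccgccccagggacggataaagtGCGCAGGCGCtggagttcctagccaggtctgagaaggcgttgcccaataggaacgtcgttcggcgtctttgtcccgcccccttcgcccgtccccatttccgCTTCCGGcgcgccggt
Cox7a2l: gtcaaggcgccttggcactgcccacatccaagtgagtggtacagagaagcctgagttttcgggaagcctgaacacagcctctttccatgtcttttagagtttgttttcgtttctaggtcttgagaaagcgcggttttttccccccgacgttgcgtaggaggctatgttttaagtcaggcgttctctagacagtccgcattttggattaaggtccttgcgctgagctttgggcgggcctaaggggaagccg

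Several libraries need a word before the results. The 2 libraries of CXB-6/ByJ mice OB-273 and OB-274 held the same values apart from a constant scale (r = 0.9999999, largest difference 0.00706 on the log2 scale), whereas the 266 other pairs of mice of a strain had r between 0.831 and 0.991, so these 2 were averaged and counted as 1 sample. Mouse OB-627 has labels that name 2 strains and entered no comparison, which left 280 libraries with a strain. Mice OB-547 (BXD-12/TyJ) and OB-422 (CXB-3/ByJ) stood apart in the genes described here. The mean of the 82 genes on the log2(FPKM + 1) scale was 8.42 in OB-547 and 7.33 in OB-422, against 6.00 to 6.62 in the other mice (median over mice 6.27). The other BXD-12/TyJ mice were at 6.20 and 6.29 and the other CXB-3/ByJ mice at 6.20 and 6.23, so neither strain mate shared the shift. Results are given with these libraries and without both where they rest on them, and the second fit was added after the values were seen.

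Levels are in FPKM, in which fragments are scaled to transcript length and to the size of the library, so they can be compared between genes. Without the 2 libraries, the ATP synthase catalytic subunit Atp5b was the most abundant of the 82 genes, at 525 ± 50.4 FPKM (SD, n = all mice but these 2; lowest mouse 402, highest 759). The heme-proximal accessory subunit Cox8a of complex IV followed at 430.0 ± 60.7, and Cox4i1, also of complex IV, stood at 401 ± 39.9. The most abundant genes of the other complexes were Uqcrh of complex III at 244 ± 20.2, Ndufb8 of complex I at 175.3 ± 20.1 and Sdha, the flavoprotein of complex II, at 161 ± 8.02. Over all mice, 7 genes had a mean of at least 300 FPKM, 4 lay between 200 and 300, 29 between 100 and 200, 30 between 30 and 100, 6 between 10 and 30, 4 between 1 and 10, and 2 below 1. The median gene of each complex was at 81.1 FPKM for complex I, 66.2 for complex II, 113 for complex III, 140.4 for complex IV and 150.5 for complex V. The low end held the paralogs known from other tissues: the heart and muscle forms Cox6a2 (10.4 ± 3.33), Cox7a1 (6.43 ± 1.70) and Cox8b (0.868 ± 1.24), the testis forms Cox6b2 (6.49 ± 1.90) and Cox7b2 (1.11 ± 0.821), and the hypoxia-inducible Ndufa4l2 (0.881 ± 0.449). Among the 3 genes for the c subunit of ATP synthase, whose mature proteins are the same, Atp5g3 was at 270.3 ± 25.1, Atp5g1 at 102 ± 15.96 and Atp5g2 at 28.7 ± 3.84, and the ranges of Atp5g2 (17.1 to 42.4) and Atp5g3 (223.8 to 378.3) overlapped neither each other nor that of Atp5g1 (57.1 to 144).

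**Figure D1:**
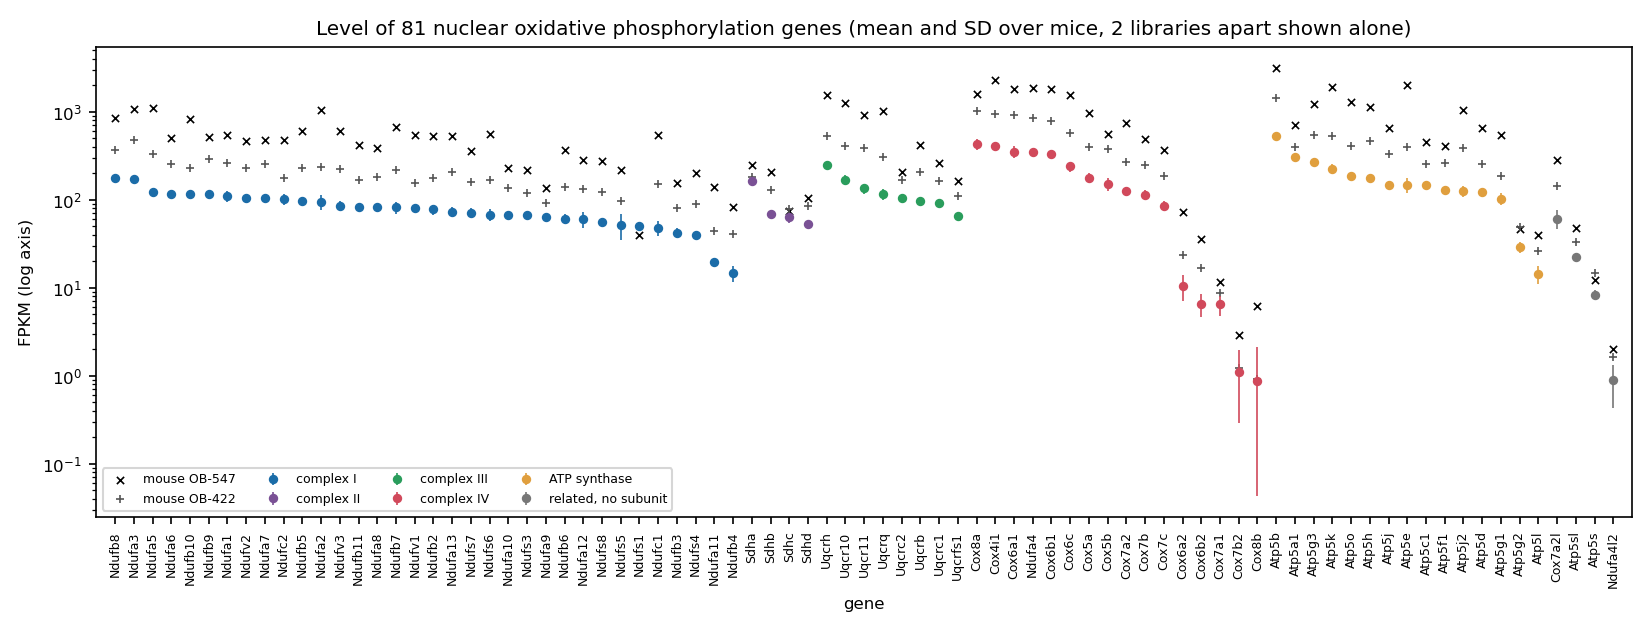
Mean level of 81 of the 82 genes in FPKM on a log axis (points) with the SD over all mice with a strain but the 2 that stand apart (bars), ordered by complex and level, and the values of mice OB-547 (x) and OB-422 (+). The lower bar of Cox8b, whose SD exceeds its mean, is cut short. Atp5b stands highest at 525 FPKM, the paralogs known from other tissues lowest, and both single mice lie above nearly all means, least so for complex II.

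OB-547 was above the median mouse in 81 of the 82 genes, by a median of 5.01 times (0.780 for Ndufs1 to 14.1 times), and OB-422 in 81 of 82 by a median of 2.23 times (0.998 to 3.20). The exception in both was Ndufs1, the large iron-sulfur subunit of complex I, at 39.5 FPKM in OB-547. Complex II moved least, with a median of 1.75 times in OB-547 and 1.44 in OB-422, against 5.07 and 2.27 for complex I. Across the 82 genes, the fold in OB-547 was lower for longer transcripts (rho = -0.544, r = -0.592, across genes of 1 library, which are not independent). The shift was not limited to these genes: the summed FPKM of 84 cytosolic ribosomal protein genes was 75669 in OB-547 and 26645 in OB-422, against 9299 to 16516 in the other mice, and the FPKM of all genes summed to 792801 and 463433, against a median of 337467. The part of RNA quality or preparation in these libraries was not tested.

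For the strain comparison, each gene was tested over all 99 strains with limma's moderated F test. Of the 82 genes, 48 differed between strains (adjusted p under 0.05), which is 58.5% beside 74.9% of all genes tested. Without OB-547 the number was 68, beside 80.9% of all genes, and without both libraries 74, beside 83.6%. The 48 genes were all called again without the 2 mice and 26 were added. By complex, the calls rose from 17 to 30 of 35 for complex I, from 3 to 7 of 8 for complex III, from 11 to 15 of 16 for complex IV and from 9 to 14 of 15 for complex V, while all 4 genes of complex II and all 4 related genes were called both times. The 8 genes without a call in either fit were Ndufa2, Ndufa11, Ndufb4, Ndufb11 and Ndufs8 of complex I, Uqcr11 of complex III, Cox6b2 of complex IV and Atp5g2 of complex V. A rank test over strains (Kruskal-Wallis, Benjamini-Hochberg adjusted) on all libraries called 66 of the 82, beside 73.0% of all genes.

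The strain share of variance, the part of the variance on the log2(FPKM + 1) scale that lies between strains, gave the size of these differences. Its median over the 82 genes was 0.130 (SE 0.124 by leaving out each strain), beside 0.221 over all genes, and without the 2 libraries it was 0.323 beside 0.269. The order of the genes against all others thus turned on 2 mice of 280. The mean of the 82 genes as a single value had a share of 0.0586 (SE 0.140) with all libraries, 0.191 without OB-547 and 0.314 without both. In the latter setting the strain means had an SD of 0.0781 and mice within a strain a pooled SD of 0.0871, both on the log2 scale. Strain means ran from 6.08 in SM/J and 6.14 in BXD-14/TyJ to 6.46 in BXD-32/TyJ and 6.49 in BXH-9/TyJ, with C57BL/6J at 6.27 ± 0.0657 (SD, n = 3). The 3 SM/J mice (6.02 to 6.15) did not overlap the 3 BXH-9/TyJ mice (6.42 to 6.56). The 5 genes with the lowest shares were Ndufa2 (-0.0883), Ndufa11 (-0.0757), Ndufb11 (-0.0343), Uqcr11 (-0.0335) and Atp5d (-0.0258), where a negative value means that mice of a strain differed as much as mice of different strains. Without the 2 libraries their shares were -0.0850, 0.0538, 0.105, 0.0787 and 0.113.

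To find single genes that left the level of the others, each gene's difference from the mean of the other members was tested in the same way. This difference differed between strains for 63 of the 82 genes, 76.8% beside 66.4% of all genes, and without the 2 libraries for 75 beside 89.3% of all genes. The count for the 82 genes was therefore close to that for genes at large. The median share of the difference was 0.276 over the 82 genes, beside 0.173 over all genes. In 67 of the 82 genes the share of the difference exceeded the share of the level itself. It exceeded 0.5 in 12 genes. Without the 2 libraries the median was 0.336 for the difference and 0.323 for the level, the difference had the larger share in 48 genes, and it exceeded 0.5 in 17. These counts of shares are not set beside counts over all genes. Among the largest values were those of Ndufs5 (0.959, SE 0.0117), Cox7a2l (0.908, SE 0.0171), Cox5b (0.750, SE 0.0451), Cox6a1 (0.731, SE 0.0395), Ndufa12 (0.678, SE 0.0481), Ndufc2 (0.649, SE 0.0457), Atp5g1 (0.616, SE 0.0506), Cox5a (0.580, SE 0.0508) and Cox7a2 (0.548, SE 0.0885). Each of these genes passed the test of the difference, and in no case did leaving out the 2 libraries lower the share by more than its SE. In Sdha the order was the other way round, with a share of 0.366 for the level and 0.0408 for the difference, which did not pass (adjusted p = 0.351, limma). Without the 2 libraries these shares were 0.467 and 0.231, and the difference passed (adjusted p = 0.00100).

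**Figure D2:**
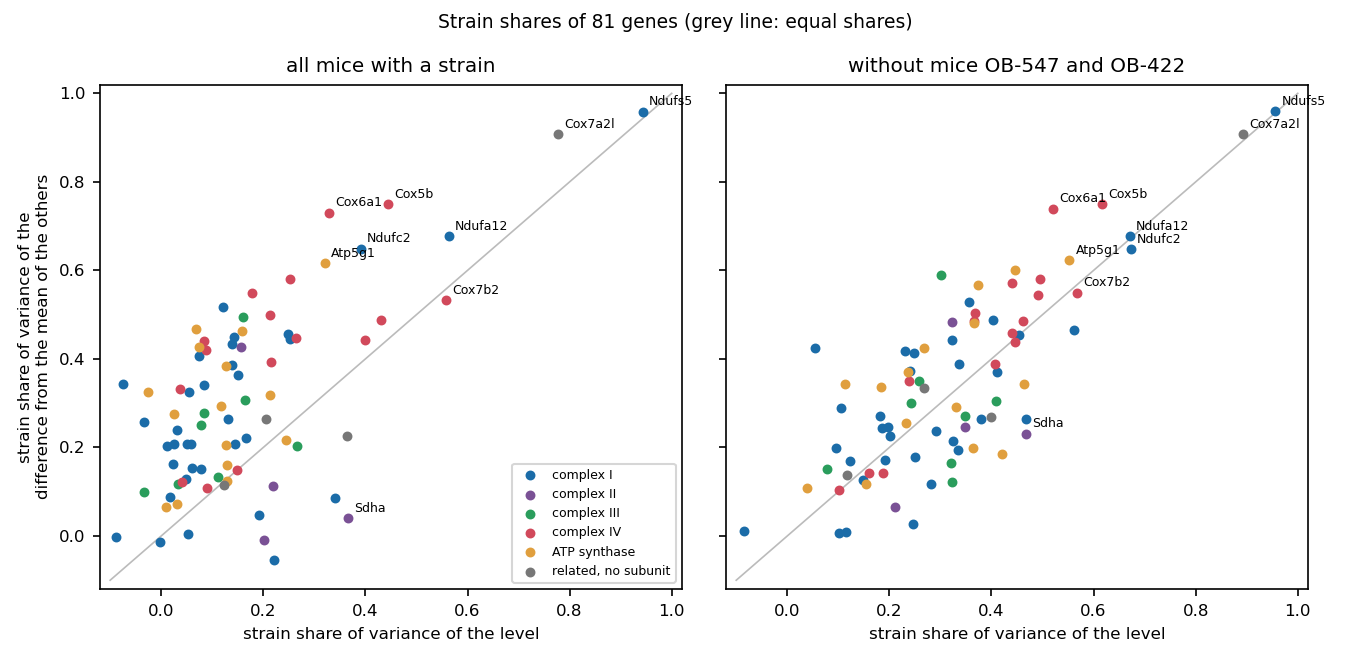
Strain share of variance of the level (horizontal) against that of the difference from the mean of the other members (vertical) for 81 of the 82 genes, coloured by complex, with all mice (left) and without OB-547 and OB-422 (right); the grey line marks equal shares. Most points lie above the line on the left, with Ndufs5 (0.959) and Cox7a2l (0.908) at the top in both panels, and the cloud moves to the right when the 2 mice are left out.

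Ndufs5, an accessory subunit of complex I on the intermembrane space side, had the largest strain share of the 82 genes. Its locus (chr4:123712710-123718202, mm10, minus strand) was measured at 2.48 FPKM in the lowest mouse, 54.8 in the median mouse and 81.6 in the highest mouse other than the 2 libraries that stand apart. The strain means fell into a low and a high range with nothing between 4.33 (SWR/J) and 43.7 FPKM (A/J), a gap of 3.06 on the log2 scale, whereas the next largest gap between neighbouring strain means of any of the 82 genes was 0.67. Low were NZB/BlNJ (3.29), I/LnJ (3.33, 1 mouse), NZW/LacJ (3.42), SM/J (3.52), C57BLKS/J (3.53), 129X1/SvJ (3.54), RIIIS/J (3.99), BUB/BnJ (3.997) and SWR/J (4.33). The 25 mice of these 9 strains were all between 2.48 and 5.49 FPKM, and the 255 mice of the other 90 strains were all between 36.0 and 217, so no mouse crossed the gap. All 9 strains are inbred strains (9 of 25), and no recombinant inbred strain and no parent of a set was low. The strain share was 0.943 (SE 0.0207, adjusted p = 1.02e-92, limma) and 0.956 without the 2 libraries. Both of the larger transcripts of the locus differed: the 525-nt transcript was at most 4.90 FPKM in the mice of the 9 strains and at least 19.4 in the others, and the 350-nt transcript was at most 0.955 in the former. In the others the 350-nt transcript had a median of 14.5 FPKM but a lowest mouse at 8.3e-05, so its ranges overlapped. The minor transcripts, the longest of 680 nt, had strain shares of -0.0026 and -0.045.

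Cox7a2l, a relative of Cox7a2 known for joining complexes III and IV into supercomplexes, came next (chr17:83501919-83514333, minus strand). It was measured at 32.1 FPKM in the lowest mouse, 63.2 in the median mouse and 94.1 in the highest mouse without the 2 libraries, and strain means ran from 35.4 (BXD75) to 90.5 (BXH-9/TyJ) with a median of 64.1. The strain share was 0.776 (SE 0.0893, adjusted p = 3.78e-41, limma), and 0.893 without the 2 libraries. The levels formed a slope, as the plot of mice by strain shows. The largest gap between neighbouring strain means was 0.084 on the log2 scale, between SEA/GnJ (85.5) and BXH-9/TyJ (90.5). A single transcript of 1078 nt carried 99.5% of the gene's FPKM.

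Cox5b, the zinc-binding subunit of complex IV, was high in 5 recombinant inbred strains: BXHA1 (235 and 247 FPKM in 2 mice), BXD-9/TyJ (194, 230 and 249), BXD75 (197, 217 and 231), BXD70 (198, 207 and 232) and BXD62 (198.6, 218.7 and 218.9). Without OB-547 and OB-422, the other mice were between 108.8 and 220.9 with a median of 145. The parents' strain means were between 132 (A/J) and 163 (C57BL/6J), below all 5. The ranges and ranks that follow also leave out OB-547 and OB-422. The same 5 strains held ranks 1, 2, 3, 4 and 6 of 99 for Ndufa12, a complex I accessory subunit, at strain means of 78.7 to 97.2 FPKM beside a median over strains of 57.7. Over the 99 strain means Cox5b and Ndufa12 had r = 0.461 (rho = 0.240), and without the 5 strains r = 0.156 (rho = 0.112, n = 94). This pair was picked after its values were seen, and the r is given as a description. Cox6a1, the form of subunit VIa used outside heart and muscle, ranged more evenly, from a strain mean of 235 (BXHA1) to 445 (BXD-32/TyJ) FPKM with a median of 353. Atp5g1 ran from 67.2 (SM/J) to 134 (BXD-32/TyJ), and Cox5a from 142 (AXB-12/PgnJ) to 225.1 (BXD-40/TyJ).

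**Figure D3:**
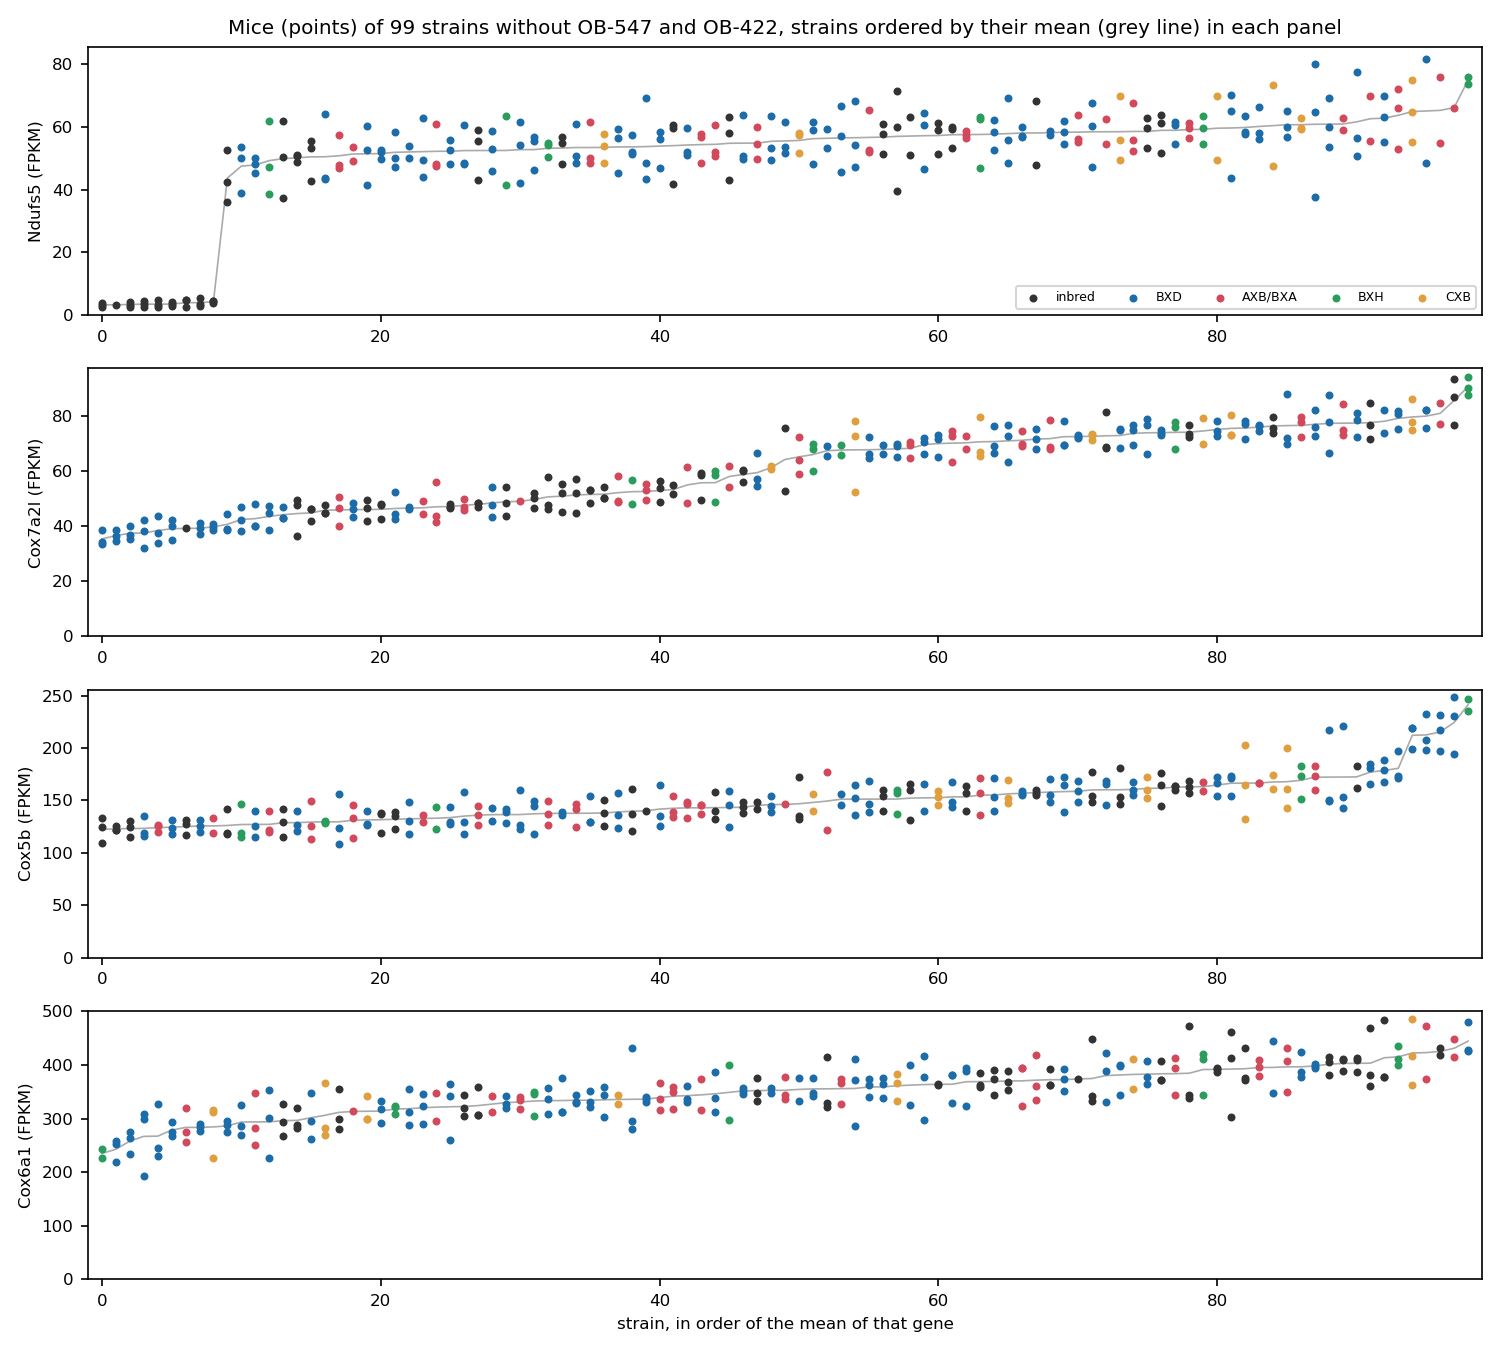
FPKM of Ndufs5, Cox7a2l, Cox5b and Cox6a1 in each mouse (points, coloured by strain set), with the 99 strains ordered by their mean in each panel (grey line), without mice OB-547 and OB-422. Ndufs5 stays below 5.49 FPKM in 9 inbred strains and above 36.0 in the others. Cox7a2l rises in a slope, Cox5b rises at the high end, and Cox6a1 runs evenly from strain means of 235 to 445.

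Among the low paralogs, Cox7b2 had a strain share of 0.558 (SE 0.0517), Cox6a2 of 0.431 (SE 0.120), Cox7a1 of 0.399 (SE 0.0718), Cox8b of 0.148 (SE 0.0620) and Ndufa4l2 of 0.123 (SE 0.0479). All 5 passed the strain test, and Cox6b2 did not (0.0896, adjusted p = 0.0830, limma). The shares were 0.568, 0.462, 0.446, 0.161 and 0.116 when the 2 libraries were left out, with the same 5 calls, and 0.101 for Cox6b2 (adjusted p = 0.0563). The highest Cox7b2 strains were BXD44 (2.26, 2.28 and 5.68 FPKM) and BXD84 (2.87, 3.39 and 3.61), and the lowest strain mean was 0.0531 in AXB-2/PgnJ. Cox6a2 was low in SWR/J (0.987, 1.89 and 2.69 FPKM), BXHB2 (2.08, 2.79 and 3.96) and CXB-12/HiAJ (0.834, 4.29 and 5.67). In the mice of the other strains, without OB-547 and OB-422, it was at 2.35 to 18.9 with a median of 10.6. Those ranges overlap at the low end. Cox8b was detected at 0.459, 3.37 and 10.996 FPKM in the 3 mice of its highest strain, BXD56, so its mice within a strain differed widely. Of 7 skeletal muscle markers only 1 had a row in the table, at a summed 0.438 to 8.92 FPKM, and of the 2 brown fat markers 1, at 1.52 to 14.3 FPKM. Both maxima were in OB-547, and without the 2 libraries the highest mice were at 4.10 and 8.23 FPKM. The part of other tissues in these levels was not tested.

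The 4 second parents were then compared with C57BL/6J, in contrasts that share the same 3 C57BL/6J mice. Few of the 82 genes passed: 2 in DBA/2J (beside 6.85% of all genes), 2 in A/J (7.98%), 2 in BALB/cJ (6.75%) and 1 in C3H/HeJ (7.56%). These shares of the 82 genes, 1 or 2 genes each, lie below the background. The residual spread behind all contrasts includes the 2 libraries that stand apart: without them the counts were 10 in DBA/2J (9.72% of all genes), 5 in A/J (10.7%), 6 in BALB/cJ (9.26%) and 14 in C3H/HeJ (10.3%). In DBA/2J 9 of them were higher than in C57BL/6J (beside 4.43% of all genes) and 1 lower (5.28%). The numbers were 1 higher (4.04%) and 4 lower (6.66%) in A/J, 4 higher (3.87%) and 2 lower (5.39%) in BALB/cJ, and 13 higher (5.41%) and 1 lower (4.89%) in C3H/HeJ.

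Cox7a2l was lower in DBA/2J and A/J. C57BL/6J mice were at 68.2, 68.6 and 81.3 FPKM, DBA/2J mice at 36.5, 47.5 and 49.6, and A/J mice at 41.9, 46.5 and 49.6. All 6 mice of both strains lay below all 3 C57BL/6J mice, with log2 fold changes of -0.70 (SE 0.15, adjusted p = 0.000322, limma) and -0.65 (SE 0.15, adjusted p = 0.00116). In C3H/HeJ (49.6, 58.4 and 59.1 FPKM) the value was -0.38, which passed only without the 2 libraries (adjusted p = 0.0182 without OB-547 and 0.0036 without both). BALB/cJ was at 74.0 FPKM, beside 72.7 ± 7.47 in C57BL/6J. When the first mouse of each strain was left out, neither call remained (adjusted p = 0.236 in DBA/2J and 0.147 in A/J, limma), and both remained when the second or the third was. The fit without the first mice kept OB-547 and OB-422 in its residual spread, and its log2 fold changes were -0.49 and -0.57. Leaving out the second mice removed OB-547, and leaving out the third removed OB-422.

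Ndufc2, a membrane subunit of complex I (chr7:97400003-97407802, plus strand), was at 109.3, 113 and 130 FPKM in C57BL/6J. It was lower in A/J (76.2, 77.2 and 77.5; log2 fold change -0.60, SE 0.16, adjusted p = 0.00485) and in BALB/cJ (80.4, 82.6 and 87.3; -0.48, SE 0.16, adjusted p = 0.0393), without overlap. Cox7a1 was higher in C3H/HeJ (7.09, 9.84 and 10.6 FPKM) than in C57BL/6J (4.49, 4.65 and 6.85) by 0.69 (SE 0.21, adjusted p = 0.0188). Ndufa4l2 was lower in BALB/cJ (0, 0.364 and 0.602 FPKM) than in C57BL/6J (0.960, 1.34 and 1.73) by -0.84 on the log2(FPKM + 1) scale (SE 0.27, adjusted p = 0.0361), a scale that understates the change of so low a gene. None of these 4 calls remained without the first mouse of each strain (adjusted p = 0.256 and 0.496 for Ndufc2 in A/J and BALB/cJ, 0.0867 for Cox7a1 and 0.0803 for Ndufa4l2, limma). Without the third mouse only the call of Ndufc2 in A/J remained, and without the second all but that of Ndufa4l2. The fit without the first mice kept OB-547 and OB-422. Its log2 fold changes were -0.52 and -0.39 for Ndufc2, 0.75 for Cox7a1 and -0.99 for Ndufa4l2.

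Other genes were called only when OB-547 or both libraries were left out, and the values below are without both. In C3H/HeJ the complex I accessory subunit Ndufb6 (71.3, 72.8 and 77.6 FPKM against 49.8, 51.2 and 55.8; log2 fold change 0.49, adjusted p = 1.55e-05) and Atp5c1, the gamma subunit of ATP synthase (158, 175.3 and 178 against 138, 139.6 and 146; 0.27, adjusted p = 0.000583), did not overlap C57BL/6J. In A/J, Sdha (log2 fold change -0.13, adjusted p = 0.0391) and Ndufa11 (-0.38, adjusted p = 0.0195) were added as lower. In DBA/2J Cox5a was at 206, 211 and 228 FPKM against 161, 166 and 167 (0.38, adjusted p = 0.00203). Cox8a was called in all 4 contrasts, at 0.36 to 0.45, and its DBA/2J mice overlapped the C57BL/6J mice.

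The recombinant inbred strains were placed by which parental mean they were nearer to on the log2(FPKM + 1) scale, without the 2 libraries. For Cox7a2l, 17 BXD strain means (35.4 to 48.4 FPKM) were nearer to DBA/2J and 26 (59.4 to 79.9) nearer to C57BL/6J, with no strain between 48.4 and 59.4. In the AXB/BXA set 8 strains (45.8 to 54.9) were nearer to A/J and 10 (58.0 to 80.9) to C57BL/6J. The parents were at 46.0 and 72.7 there, so strains at 54.9 and 58.0 lay about midway, and in FPKM 9 strains were nearer to A/J. For Ndufc2, 8 AXB/BXA strains (80.2 to 86.6) were nearer to A/J and 10 (97.7 to 126) to C57BL/6J, and in the CXB set 3 (84.4 to 90.4) were nearer to BALB/cJ and 4 (103 to 111) to C57BL/6J. In each of these cases both sides were filled. This held for Cox6a1 as well, whose 43 BXD strains ran from 243 to 445 FPKM. The 22 nearer to C57BL/6J (up to 336) and the 21 nearer to DBA/2J (from 343) almost met. Of the BXD strains, 9 were below both parents and 4 above for Cox6a1, beside 13 and 14 for Cox7a2l.

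**Figure D4:**
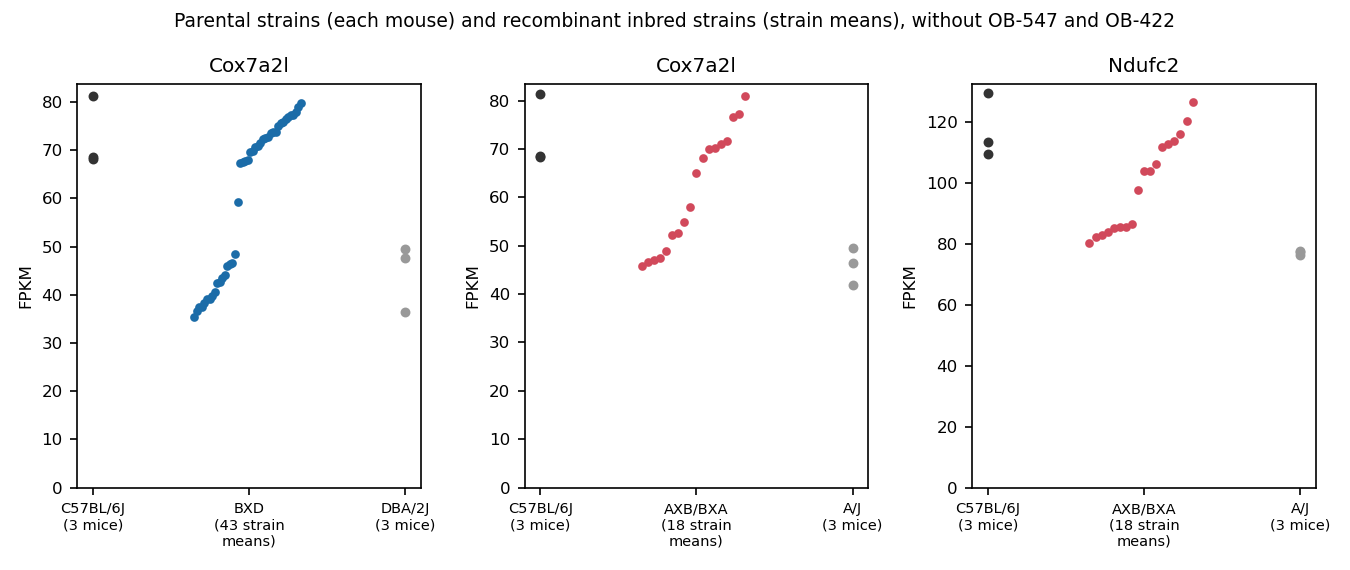
FPKM of Cox7a2l and Ndufc2 in the single mice of C57BL/6J (left of each panel) and of the second parent (right), with the means of the recombinant inbred strains between them in rank order, without mice OB-547 and OB-422. For Cox7a2l 17 BXD strain means lie at 35.4 to 48.4 and 26 at 59.4 to 79.9 FPKM, while the AXB/BXA means run on through 54.9 and 58.0 between the parents.

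At the level of transcripts, 391 transcripts of the 82 genes were in the table, 238 annotated and 153 unannotated isoforms of the merged assembly. Of these, 200 differed between strains (51.2%, beside 45.9% of all 51024 transcripts), and 234 without the 2 libraries (59.8%, beside 50.0%). Of the 34 genes without a strain call, 19 had a transcript with one (55.9%, beside 48.3% of all uncalled genes), and without the 2 libraries 3 of 8 (37.5%, beside 42.9%). In 63 of the 82 genes at least 1 transcript had a larger strain share than the gene as a whole (46 without the 2 libraries), and 67 genes had more than 1 transcript. A share above 0.5 was found for 59 transcripts, and for 71 without the 2 libraries. These counts of shares are not set beside counts over all genes or all transcripts. A gene with more transcripts has more chances of a larger share, so the counts are not read as particular to the 82 genes. Beside the transcripts of Ndufs5 above, the values of the genes named so far include a 4715-nt transcript of Atp5g1 (share 0.922; strain means 1.04 to 6.24 FPKM, 3.34% of the gene's FPKM) and an unannotated 683-nt transcript of Ndufc2 (share 0.888; 0 to 61.9 FPKM). An unannotated 4653-nt transcript of Cox7a2 (share 0.897) was at 25.8 FPKM in NZW/LacJ, 26.0 in I/LnJ and 29.9 in C57L/J, while the next strain, BXHB2, was at 10.2 and the lowest, 129X1/SvJ, at 1.38. The shares of these 3 transcripts were 0.938, 0.901 and 0.900 without the 2 libraries. They were picked after their values were seen, and where isoforms overlap nearly whole, as the 683-nt forms of Ndufc2 do, the split of fragments among them is an estimate.

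The covariation of the genes was described over 99 strain means, as the correlation of each gene with the mean of the other members. It was positive and past the threshold (permutation test, 100000 resamples, two-sided, adjusted over all genes) for 79 of the 82 genes, beside 26.2% of all genes, with a median r of 0.749 over the 82 and 0.0283 over all genes. The median rho was 0.615. Without the 2 libraries, 76 of the 82 passed, beside 17.2% of all genes, with a median r of 0.594. With the 2 strains farthest from the median left out, the median r was 0.601, also with 76 genes past the threshold (17.1% of all genes). The 5 genes with the highest r were Cox4i1 (0.902; rho 0.825), Atp5b (0.888; rho 0.791), Atp5o, the oligomycin sensitivity subunit of ATP synthase (0.887; rho 0.733), Ndufa13 (0.884; rho 0.795) and Uqcr10 (0.865; rho 0.775), each with adjusted p = 6.08e-05, about the smallest these permutations can give. Without these mice the 5 had r between 0.762 and 0.837.

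At the other end, among genes with a mean of at least 1 FPKM, Cox7a1 had r = 0.174 (rho 0.189, adjusted p = 0.145 by permutation), Ndufs5 0.205 (rho 0.298, adjusted p = 0.0932), Cox7b2 0.247 (rho 0.269), Ndufs1 0.258 (rho 0.484) and Atp5s 0.278 (rho 0.265). Ndufs1, the gene that did not rise in the 2 libraries, went to r = 0.515 without them. Ndufa4l2, below 1 FPKM, had r = 0.0729 with all libraries and -0.0509 without the 2. In the fit without them, the genes short of the threshold were Ndufa4l2, Ndufs5, Ndufa12 (0.221), Cox6b2 (0.213), Uqcrc2 (0.242) and Atp5e (0.154). Across the 82 genes, r without the 2 libraries was higher for genes with a higher level (rho = 0.451), and it was unrelated in rank to transcript length (rho = -0.00978), both across genes, which are not independent.

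The pairs of genes were compared by complex. Over all 3321 pairs the median r was 0.487, and 3267 pairs were above 0. When the 2 libraries were left out the median was 0.312. Pairs within complex I had a median of 0.563 (0.379 without the 2), within complex II 0.452 (0.384), within complex III 0.521 (0.338), within complex IV 0.289 (0.211) and within complex V 0.504 (0.314). Pairs from different complexes had a median of 0.507 (0.333), so belonging to the same complex went with little difference in r, and complex IV, with its low paralogs, was lowest. No test of these medians was made, since the pairs share genes and strains.

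**Figure D5:**
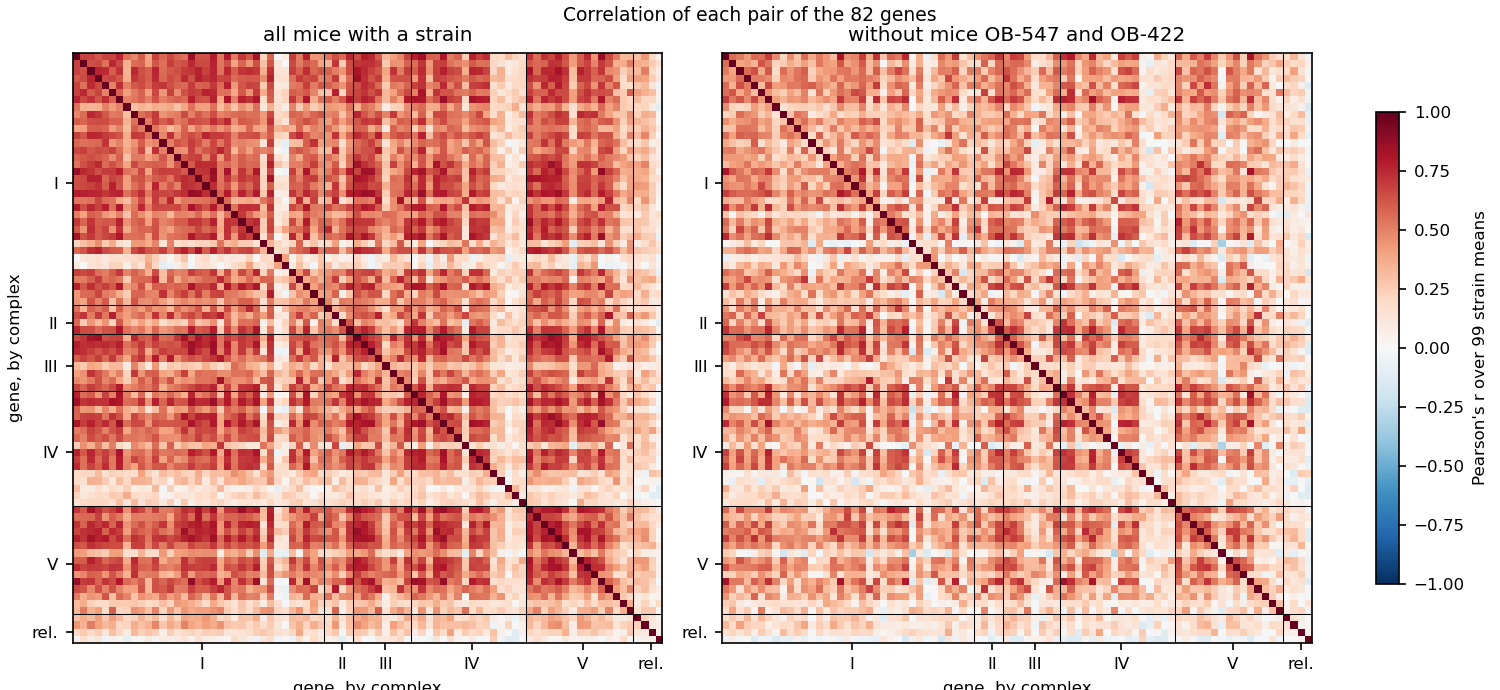
Pearson's r over 99 strain means for each pair of the 82 genes, ordered by complex (lines) and by level within a complex, with all mice (left) and without OB-547 and OB-422 (right); rel. marks the related genes that are no core subunits. Red prevails within and between complexes alike, the median falls from 0.487 to 0.312 when the 2 mice are left out, and pale stripes mark single genes such as Ndufs5 and the low paralogs of complex IV.

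The same was computed within the sets. The median r of the genes was 0.702 over the 18 AXB/BXA strains (47 of 82 past the threshold, beside 3.22% of all genes), 0.795 over the 43 BXD strains (76, beside 20.5%; 0.513 and 50 genes, beside 4.72%, without OB-547), and 0.674 over the 25 inbred strains (56, beside 5.03%). It was 0.690 over the 6 BXH strains and 0.825 over the 7 CXB strains (0.560 without OB-422), where none of the 82 genes passed, the permutations of so few strains being too coarse for a call over all genes. Mice also covaried within their strains: for deviations from the strain mean the median r was 0.872, and 0.661 without the 2 libraries. After quantile normalization of the libraries the median r over strains was 0.506 with 72 genes past the threshold (19.0% of all genes). Without the 2 libraries and after regression on the summed FPKM of each mouse it was 0.438, with 61 genes past the threshold (7.98%).

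The mean of the 82 genes was set beside other lists, over strain means and without the 2 libraries; these values are descriptions. It had r = 0.829 (rho 0.842) with the mean of 6 carriers and subunits that the names did not match, such as Cyc1, Cycs and Usmg5, and r = 0.730 (rho 0.751) with 84 cytosolic ribosomal protein genes. It had r = 0.688 (rho 0.711) with the summed FPKM, 0.653 (rho 0.668) with 40 assembly factors and 0.607 (rho 0.668) with 13 genes of the citric acid cycle. With 13 regulators of mitochondrial gene expression, such as Ppargc1a, Nrf1 and Tfam, it was -0.221 (rho -0.264). Without the 2 farthest strains these values were 0.812, 0.709, 0.664, 0.638, 0.602 and -0.206. The differences between these values were not tested. No row of the table was found for any of the 13 mitochondrially encoded subunits, which were not analysed here.

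Gene by gene, with all libraries and beside 26.2% of all genes, 6 of the 6 unmatched carriers and subunits had a positive r past the threshold (median r 0.747), 25 of the 40 assembly factors (0.306), 9 of the 13 genes of the citric acid cycle (0.431), 2 of the 13 regulators (-0.0429) and 76 of the 84 ribosomal genes (0.606). A negative r passed for 3 regulators and 1 assembly factor, beside 3162 of 14079 genes. Esrra, whose locus is shared with Prdx5, was among the 2 positive regulators. When the 2 libraries were left out (17.2% of all genes) the numbers were 5 (0.579), 15 of the assembly factors (0.193), 12 of the citric acid cycle (0.299), 2 of the regulators (-0.0291) and 73 of the ribosomal genes (0.484). Strain calls stood at 2 of 6, 32 of 40, 12 of 13, 5 of 13 and 64 of 84, beside 74.9% of all genes, with median strain shares of 0.0319, 0.191, 0.267, 0.0840 and 0.225. Leaving out the 2 libraries gave 5, 34, 12, 8 and 81 strain calls, beside 83.6%, with median shares of 0.207, 0.269, 0.302, 0.137 and 0.450. Among assembly factors, Lyrm7, which acts on the Rieske protein of complex III, had a strain share of 0.809 and r = 0.195 (0.810 and 0.204 without the 2 libraries). Cox18, which inserts Cox2 into the membrane, had 0.710 and r = 0.276 (0.769 and 0.101). Of the named genes outside the 82 (1943 without a name were left out), the 5 with the highest r were Slc25a4 (0.879), the ATP/ADP carrier of the inner membrane, Prdx2 (0.863), the locus of Esrra and Prdx5 (0.861), Rpl32 (0.850) and Hint1 (0.848). When both libraries were left out Slc25a4 was again first, at 0.819.

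Markers of the hypothalamus were present in the mice, with 13 of 14 found (Sim1 had no row), at 1081 to 10608 FPKM summed over the list, the highest being OB-547. Other cell types varied as well: the summed markers of the anterior pituitary (6 of 7 found) ran from 0.589 to 16462 FPKM over mice, and of the choroid plexus (5 of 6) from 7.25 to 2101. Over strain means without the 2 libraries, the mean of the 82 genes had r = 0.212 with neuron markers (8 of 8 found), 0.206 with astrocyte markers (6 of 6), 0.274 with oligodendrocyte markers (6 of 6), -0.0356 with microglia markers (5 of 5), -0.0197 with endothelial markers (4 of 4), 0.132 with thalamus markers (5 of 5) and 0.196 with blood markers (5 of 7). It was -0.0851 for the pituitary, 0.306 for the choroid plexus and -0.0708 for the hypothalamus list. For deviations of mice from their strain mean, without the 2 libraries, r was 0.410 with neuron, 0.411 with astrocyte, 0.442 with oligodendrocyte and 0.429 with microglia markers. It was 0.0259 with endothelial, 0.227 with thalamus, 0.305 with blood, -0.0862 with pituitary, 0.199 with choroid plexus and -0.0644 with hypothalamus markers. Single markers of a list went both ways over strain means without the 2 libraries. Among neuron markers, Nefm was at r = 0.513 and Syp at 0.434, beside Rbfox3 at -0.446 and Syt1 at -0.413. Aldoc was at 0.355 and Slc1a3 at -0.475 among astrocyte markers, and Agrp at 0.604 and Nkx2-1 at -0.330 in the hypothalamus list. These markers were picked after their values were seen. The part of cell composition in the shared level was not tested, and in whole tissue fewer cells of a type and less RNA per cell cannot be told apart.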

How the data were processed

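Per the labels and methods, the authors used STAR 2.3.1 to align unstranded mRNA reads of each hypothalamus to mm10, Cufflinks 2.2.0 to assemble transcripts strain by strain, joined with GENCODE M2, and Cuffnorm 2.2.1 to quantify each mouse. The deposited values are FPKM per gene and transcript, scaled between mice by the authors. They carry no counts, so no counting interval is given, and precision is the spread over mice. Many of these genes have processed pseudogenes: reads with up to 10 mapping positions were kept, a correction for them is stated for the assembly, and quantification used default settings, so genes with near-identical copies are uncertain. All 282 columns were used, 2 as 1 averaged sample (CXB-6/ByJ).

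FPKM were tested as log2(FPKM + 1) with limma 3.58.1 in R 4.3.3, over 99 strains with no covariate, adjusted by the Benjamini-Hochberg method over 14079 genes or 51024 transcripts at 0.05. The test of the difference subtracted the mean of the members (for a member, of the others). The strain share is the intraclass correlation, with an SE by leaving out each strain. Correlations over strain means had two-sided permutation tests with 100000 resamples (10000 for alternatives, exact for 7 strains or fewer), which take strains as exchangeable although they are related. Replicates are separate mice. The fits were tested on simulated data. The remaining steps ran in Python 3.11.15 (numpy 2.4.6, pandas 2.3.3, scipy 1.17.1), and figures were drawn with matplotlib 3.10.9.

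The members and lists were chosen with earlier results of these data known. Genes were named by rule: the most abundant gene of each complex, the 10 largest strain shares and shares of the difference, the 5 lowest strain shares, the 5 lowest and highest r, up to 3 called genes per founder contrast, the paralogs known from other tissues, and the 5 other genes with the highest r. A gene that the rule names is not reported here. Names outside it were chosen after their values were seen. Gene results were recomputed after quantile normalization, with smaller pseudocounts (0.1 and 0.01), with a floor of 1 on mean FPKM, with read depth and uniqueness as covariates, without single mice and with OB-627 in either strain, and the strain test also by ranks. Transcripts had fewer of these settings (a pseudocount of 0.1, covariates, mice left out), and correlations had no pseudocount or OB-627 setting but were also run by strain set, by mouse and on FPKM.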

Additional observations from a re-analysis of the deposited data

How the results depend on the processing

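Of 226 values recomputed under another setting, 170 moved little and 56 moved further. A share was taken to move little when it changed by less than its SE by leaving out each strain. That limit was wide, at 0.124 for the median share and 0.140 for the share of the mean of the 82 genes. Without OB-547 these shares were 0.249 and 0.191, which still counted as little. Without OB-547 and OB-422 the strain test called 74 genes, and the founder contrasts 10 (DBA/2J), 5 (A/J), 6 (BALB/cJ) and 14 (C3H/HeJ); without OB-547 alone they called 4 in DBA/2J (8.49% of all genes) and 11 in C3H/HeJ (9.22%). Quantile normalization gave 9 (7.78%), 6 (8.39%), 6 (7.13%) and 12 (8.2%). Setting the pseudocount to 0.01, or leaving out genes under a mean of 1 FPKM, left 1 call in BALB/cJ, and sequencing depth and uniqueness as covariates gave 2 in C3H/HeJ. The median share was 0.323 without the 2 mice and 0.283 after quantile normalization, and the share of the mean of the 82 genes 0.314 and 0.229. The median r was 0.506 after quantile normalization, 0.438 after regression on the summed FPKM without the 2 mice, and 0.513 in the BXD set without OB-547. Within sets, 47 genes (AXB/BXA), 50 (BXD without OB-547) and 0 (BXH, and CXB with or without OB-422) had a positive call by permutation.

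Leaving out 1 mouse of each strain in turn left fewer residual degrees of freedom. It gave 20 to 36 strain calls of the 82 genes (6421 to 8641 of all genes), 35 to 51 calls of the difference (4301 to 7568), and 123 to 157 transcripts (12367 to 16851 of all). Founder calls were 0 to 2 of the 82 genes in DBA/2J (4.06% to 4.49% of all genes), 1 to 2 in A/J (4.07% to 4.96%), 0 to 1 in BALB/cJ (3.52% to 4.99%) and 0 to 1 in C3H/HeJ (3.99% to 4.93%). The founder calls named with all mice were all lost without the first mouse, and the single A/J call then was Cox7b2, as higher. That setting kept both OB-547 and OB-422, whereas each of the others left out 1 of them. The share of the mean of the 82 genes was -0.00983 to 0.118, with a change of sign without the first mouse. No paired analysis was possible because the labels give the mice of different strains no shared replicate numbers.

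Strains rest on 3 mice or fewer, so founder contrasts are coarse. FPKM give no depth, and low genes such as Cox8b, Cox7b2 and Ndufa4l2 vary most between mice of a strain.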

Other observations

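Single strains stood at the edge of the panel for Ndufb7 and Atp5s, which were chosen after their values were seen. Ndufb7, a complex I accessory subunit, was at 144, 164 and 173 FPKM in the 3 BXD84 mice, above all mice of the other strains (59.1 to 119, without OB-547 and OB-422). Atp5s was at 3.93, 3.97 and 4.44 FPKM in SWR/J, below all other mice (5.62 to 12.1, also without OB-547 and OB-422). A 3171-nt transcript of Sdhc, the large membrane anchor of complex II, had the largest strain share of the 391 transcripts (0.976): it was at 12.5 FPKM in C57BL/6J and 11.04 in BALB/cJ, 0.366 in A/J, and listed at 0 in DBA/2J and C3H/HeJ, while the gene as a whole had a share of 0.202.

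After the level shared by all 82 genes was taken out, and without the 2 libraries, the pair with the highest correlation of differences over strains was Cox8a with Atp5j2 (r = 0.740, rho = 0.755), followed by Ndufs7 with Uqcrc1 (r = 0.707, rho = 0.527). The lowest was Ndufa11 with Ndufb6 (r = -0.531, rho = -0.545). These are extremes of 3321 pairs and were not tested.

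Mouse OB-627, whose labels name AXB8 in the title and AXB-6/PgnJ as the strain, was at 49.3 FPKM for Cox7a2l (AXB-6/PgnJ mice 44.2 to 49.0, AXB-8/PgnJ mice 54.2 to 61.8) and at 106 for Ndufc2 (82.6 to 90.6, and 115 to 126). The values lie outside both strains and assign it to neither.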
